A study of Homo sapiens with 4 samples.

Results

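The genes described here are 10 genes of polyamine metabolism in 697 cells, chosen by symbol: the synthesis genes ODC1, AMD1, SRM and SMS, the antizyme genes OAZ1 and OAZ2 with the antizyme inhibitor gene AZIN1, and the catabolic genes SAT1, SMOX and PAOX. All 10 had a row among the 28814 genes of the count table, and all 10 passed the filter on low counts that left 16862 genes to test. The 697 line is an established human B-cell precursor acute lymphoblastic leukaemia line. Cells were exposed for 24 h to 1 µM MZ1, or to DMSO in equal volume as the control, and RNA was sequenced from 2 libraries of each group. MZ1 is a degrader of BET proteins, which read acetylated chromatin and help RNA polymerase II to elongate: a JQ1-type bromodomain ligand is linked to a group that recruits the ubiquitin ligase VHL. No genetic change separates the groups, all libraries come from 1 line, and the labels do not say whether replicates were separate cultures, so the p-values speak only to spread among these libraries, which may be technical.

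Polyamines (putrescine, spermidine and spermine) are small positively charged molecules that bind nucleic acids and that growing cells need in quantity. Ornithine decarboxylase, the product of ODC1, makes putrescine, and the product of AMD1 supplies the aminopropyl groups that spermidine synthase (SRM) and spermine synthase (SMS) add to it in turn. Antizymes bind ornithine decarboxylase and send it to the proteasome, the antizyme inhibitor draws antizyme away from it, and the acetyltransferase encoded by SAT1 marks spermidine and spermine for oxidation or export.

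After MZ1 all 4 synthesis genes fell, from 2.19-fold for ODC1 to 30.0-fold for SRM. Both antizyme genes rose, OAZ1 2.68-fold and OAZ2 2.67-fold, and AZIN1 rose 1.37-fold. SAT1 rose 11.2-fold, whereas the oxidase genes SMOX and PAOX did not pass the test. With edgeR (quasi-likelihood test, p adjusted by Benjamini-Hochberg over all tested genes, threshold 0.05), 4 of the 10 members were called higher and 4 lower. Over all tested genes 84.2% were called, 42.8% higher and 41.3% lower, so the members' share of 80.0% called is near the background. The groups did not overlap for 9 members, against 91.3% of all tested genes. The median log2 fold change (MZ1 over DMSO) was -0.31 over the members and 0.05 over all tested genes. All members are protein-coding, and the median over tested protein-coding genes was -0.2, with 87.3% called. Calls draw on a spread estimated across genes, since 2 libraries against 2 cannot give an exact two-sided permutation p below 0.333.

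The libraries held 14246367 to 16488005 counted reads. Levels below are CPM, counts relative to library size (the usual CPM unit) after TMM scaling, so each is a share of its library and not an amount per cell, and in bulk RNA fewer cells of a type cannot be told apart from less RNA per cell. All 12 B-cell precursor markers listed for the check of the cell type were above 10 CPM with DMSO and 10 of 12 were with MZ1, and their summed level was 4058 to 4069 CPM with DMSO and 1427 to 1475 CPM with MZ1. These markers did not change alike. DNTT was at 1243.9 and 1224.2 CPM with DMSO and at 84.3 and 94.4 CPM with MZ1. RAG1 hardly moved, at 112.3 and 111.3 CPM with DMSO and 104.4 and 117.0 CPM with MZ1. The 5 myeloid markers summed to 5.31 to 6.66 CPM with DMSO and 24.9 to 28.3 CPM with MZ1, with MPO at 0 in both DMSO libraries and CSF1R lower with MZ1 (5.62 and 4.66 against 0.990 and 0.867 CPM). Of the 6 T and NK cell markers 3 had a row and summed to 16.9 to 18.1 CPM with DMSO and 7.81 to 8.49 CPM with MZ1. NKG7 alone was lower with MZ1 (16.1 and 17.6 against 3.75 and 2.96 CPM), while CD8A (0.672 and 0.472 against 4.1 and 3.83 CPM) and GNLY (0.0611 and 0 against 0.637 and 1.01 CPM) were higher. The 2 erythroid markers with a row were below 3 CPM in every library. Mitochondrially encoded genes took 5.48% to 5.82% of counts with DMSO and 8.98% to 9.26% with MZ1, and histone genes took 0.0141% to 0.0144% and 1.06% to 1.08%. With the mitochondrial and histone genes left out, log2 fold changes (MZ1 over DMSO) were -1.13 for ODC1, -4.9 for SRM, 1.43 for OAZ1 and 3.49 for SAT1. The main fit gave -1.13, -4.91, 1.42 and 3.48. The part of the marker, mitochondrial and histone shifts in the members' changes was not otherwise tested.

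**Figure D1:**
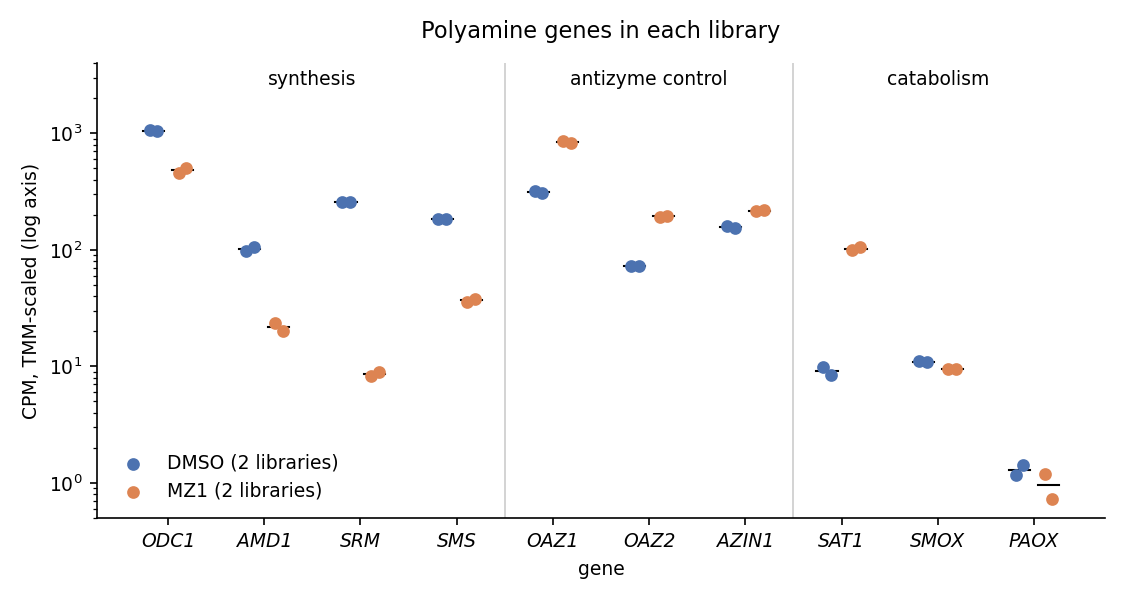
Level of each polyamine gene in each of the 4 libraries, as TMM-scaled CPM on a log axis. Points are single libraries and black lines are group means of 2. The 4 synthesis genes lie lower with MZ1, the antizyme genes, AZIN1 and SAT1 lie higher, and the points of PAOX overlap.

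ODC1 (ENSG00000115758; chromosome 2, 10439968 to 10448504, minus strand, GRCh38) encodes the enzyme of the first committed step and was the most abundant member. It stood at 1071 and 1042 CPM in the DMSO libraries and at 460 and 504 CPM in the MZ1 libraries. The groups lie far apart relative to the gap within each, and the log2 fold change was -1.13 ± 0.04 (SE; edgeR adjusted p = 2.25e-18). Of all tested genes 24.1% had a lower fold change, so the fall of ODC1 is moderate among the falls in these cells. Even with MZ1 its level was 162 CPM per kb of exon, above every other member except OAZ1. A divergent transcript, ODC1-DT, starts upstream on the other strand. It had 50 and 38 reads with DMSO and 15 and 7 with MZ1, with -1.74 ± 0.41 as the log2 fold change (edgeR adjusted p = 3.57e-04). The value was -2.36 without MZ1 replicate 1 and -1.31 without MZ1 replicate 2, so its size depends on which MZ1 library is used.

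The RefSeq table lists 2 start sites for ODC1, and the window of the second holds the 6-letter E-box CACGTG at 2 places. The motif, bound by MYC and related factors, reads the same on both strands. It is shown here because the synthesis genes fell together, and the SRM window, which also holds it, is given beside it. Each window runs from 250 bases before to 50 after a start (GRCh38.p14), both on the minus strand, with the motif in capitals.
ODC1 chr2:10447963-10448262: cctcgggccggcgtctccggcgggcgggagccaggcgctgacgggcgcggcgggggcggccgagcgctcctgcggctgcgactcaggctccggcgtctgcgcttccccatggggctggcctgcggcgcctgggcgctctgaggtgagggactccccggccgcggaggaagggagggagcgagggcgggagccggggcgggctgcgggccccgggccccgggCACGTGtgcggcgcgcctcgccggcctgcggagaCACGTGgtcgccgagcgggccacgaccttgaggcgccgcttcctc
SRM chr1:11059969-11060268: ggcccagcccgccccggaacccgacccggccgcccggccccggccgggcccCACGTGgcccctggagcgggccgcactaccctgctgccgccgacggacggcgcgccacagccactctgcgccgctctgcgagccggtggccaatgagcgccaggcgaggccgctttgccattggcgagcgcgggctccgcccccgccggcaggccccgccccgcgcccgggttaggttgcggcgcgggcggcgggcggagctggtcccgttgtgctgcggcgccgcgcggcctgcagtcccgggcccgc
In ODC1 the matches begin 29 bases before and 5 bases after the listed start, at 10448036 to 10448041 and 10448002 to 10448007, inside an intron of the GENCODE 29 gene model. In SRM the match begins 199 bases before the start, at 11060212 to 11060217, outside the gene. Of 34943 distinct windows listed by RefSeq, 7.23% held the motif and 0.661% held it at least at 2 places. The table had windows for 7 of the 10 members. ODC1 and SRM had the motif in a window, and none of the windows listed for AMD1, SMS, OAZ1, OAZ2 and SAT1 had it. The 7.23% is a share of windows and some members have several, so it is not a background for this count of genes. A match describes the letters only, and the absence of one in these windows says nothing about binding elsewhere.

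SRM (ENSG00000116649; chromosome 1, 11054584 to 11060024, minus strand), which turns putrescine into spermidine, had the largest fall of the members. Both DMSO libraries were at 258 CPM and the MZ1 libraries were at 8.28 and 8.89 CPM. Replicates nearly coincide, and the log2 fold change was -4.91 ± 0.07 (SE; edgeR adjusted p = 1.42e-26). It ranked 201 from the lowest of 16862 tested genes, so that 1.19% had a lower fold change. The MZ1 level rests on 240 reads over the 2 libraries, against 8593 with DMSO, which gives an exact 95% counting interval of 0.0291 to 0.0378 for the ratio. A processed pseudogene of SRM, SRMP3, had 2 and 1 reads with DMSO and 0 with MZ1. It was not tested.

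SMS (ENSG00000102172; chromosome X, 21940573 to 21994835, plus strand) makes spermine from spermidine. It stood at 184 and 183 CPM with DMSO and at 35.8 and 38.2 CPM with MZ1. The groups do not overlap, and the log2 fold change was -2.31 ± 0.06 (SE; edgeR adjusted p = 5.26e-22). SRM and SMS encode successive steps, and their balance turned over. Per kb of exon, SRM transcripts were 1.6 times those of SMS in both DMSO libraries and 0.263 and 0.265 times in the MZ1 libraries. The ratio fell 6.06-fold (exact permutation p = 0.333, the smallest possible here, and 0.5 after adjustment over 6 pairs). From the gene-wise fits the difference between the log2 fold changes was -2.60, with a 95% interval of -2.78 to -2.42 if their errors are independent.

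AMD1 (ENSG00000123505; chromosome 6, 110874770 to 110895713, plus strand) encodes S-adenosylmethionine decarboxylase, which makes the aminopropyl donor of both synthases. Its level was 97.6 and 106 CPM with DMSO and 23.4 and 20.2 CPM with MZ1. Every MZ1 value lies well under every DMSO value, and the log2 fold change was -2.22 ± 0.08 (SE; edgeR adjusted p = 4.23e-19). The 95% intervals of the log2 fold changes of AMD1 (-2.37 to -2.07) and SMS (-2.42 to -2.20) overlap. A processed pseudogene, AMD1P3, had 4 to 10 reads in a library. Summed over the 4 synthesis genes, levels were 1611 and 1589 CPM with DMSO and 528 and 571 CPM with MZ1, and most of each sum is ODC1.

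**Figure D2:**
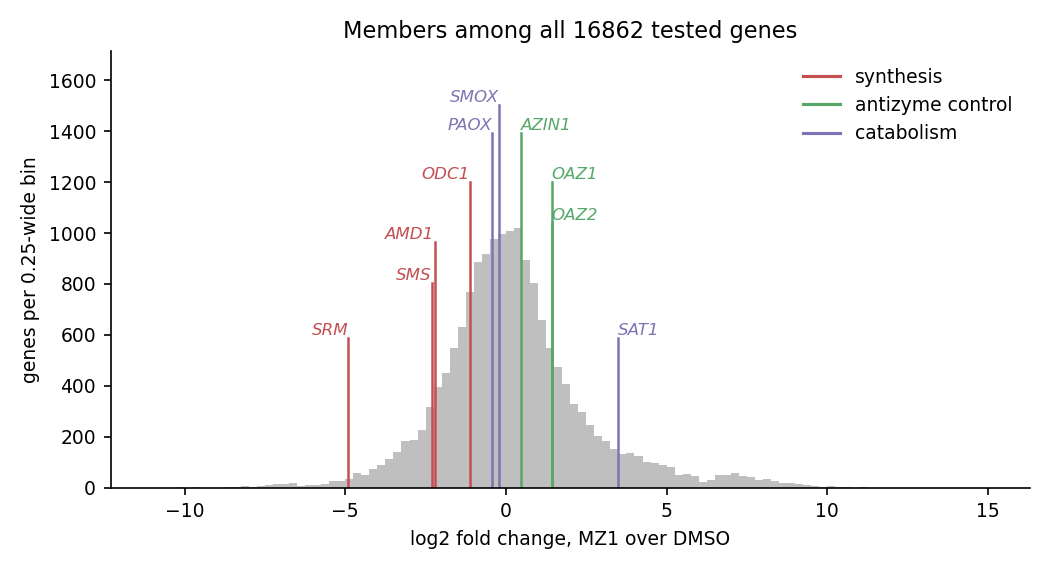
Histogram of log2 fold changes of all 16862 tested genes, in bins of 0.25, with coloured lines at the polyamine genes by role (line heights only separate the names). SRM lies far in the lower tail at -4.91, the 2 antizyme genes coincide at 1.42, and SMOX and PAOX lie near the centre.

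The antizyme genes moved the other way. OAZ1 (ENSG00000104904; chromosome 19, 2269509 to 2273490, plus strand) encodes the main antizyme. It stood at 322 and 310 CPM with DMSO and at 862 and 830 CPM with MZ1. Its log2 fold change was 1.42 ± 0.04 (SE; edgeR adjusted p = 8.57e-21). OAZ2 (ENSG00000180304; chromosome 15, 64687573 to 64703281, minus strand), a paralog of the same function, stood at 72.8 and 72 CPM with DMSO and at 193 and 194 CPM with MZ1. Its log2 fold change was 1.42 ± 0.05 (SE; edgeR adjusted p = 6.97e-19). Neither gene's groups overlap, and both sit at the same place in the ranking, with 77.1% of tested genes at a lower fold change.

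The ratio between these paralogs hardly moved although both rose. Per kb of exon, OAZ1 was 9.86 and 9.62 times OAZ2 in the DMSO libraries and 9.96 and 9.57 times in the MZ1 libraries, so the groups overlap (exact permutation p = 1.0). The difference between the log2 fold changes was 0.00, with a 95% interval of -0.12 to 0.13 if errors are independent.

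Antizyme protein is made only when ribosomes shift frame at a stop codon in its message, which polyamines promote, so mRNA counts do not measure antizyme protein. The site in OAZ1 is shown because this step stands between the measured transcript and the inhibitor. It lies in coding sequence at chromosome 19, 2271428 to 2271457 (GRCh38, plus strand), in a GENCODE 29 transcript, with the codon before the stop and the stop codon (2271443 to 2271445) in capitals.
OAZ1 frameshift site: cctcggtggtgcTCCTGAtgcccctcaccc

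AZIN1 (ENSG00000155096; chromosome 8, 102826357 to 102893864, minus strand) encodes the antizyme inhibitor, an ornithine decarboxylase relative without its activity. It was at 161.2 and 153.5 CPM with DMSO and at 215 and 218 CPM with MZ1. The groups do not overlap, and the log2 fold change was 0.46 ± 0.05 (SE; edgeR adjusted p = 1.49e-09). This is the smallest change among the 8 members called, with 59.8% of tested genes at a lower fold change. Setting the decarboxylase against its controls, ODC1 per kb was 14.4 and 14.7 times AZIN1 with DMSO and 4.64 and 5.01 times with MZ1. Against OAZ1, ODC1 was 3.85 and 3.89 times as high per kb with DMSO and 0.618 and 0.703 times with MZ1, so the order of the 2 transcripts turned. Both ratios separate the groups without overlap (exact permutation p = 0.333 for each, 0.5 after adjustment over 6 pairs). The differences between log2 fold changes were -1.59 (95% interval -1.71 to -1.47) for ODC1 and AZIN1, and -2.55 (-2.67 to -2.44) for ODC1 and OAZ1.

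**Figure D3:**
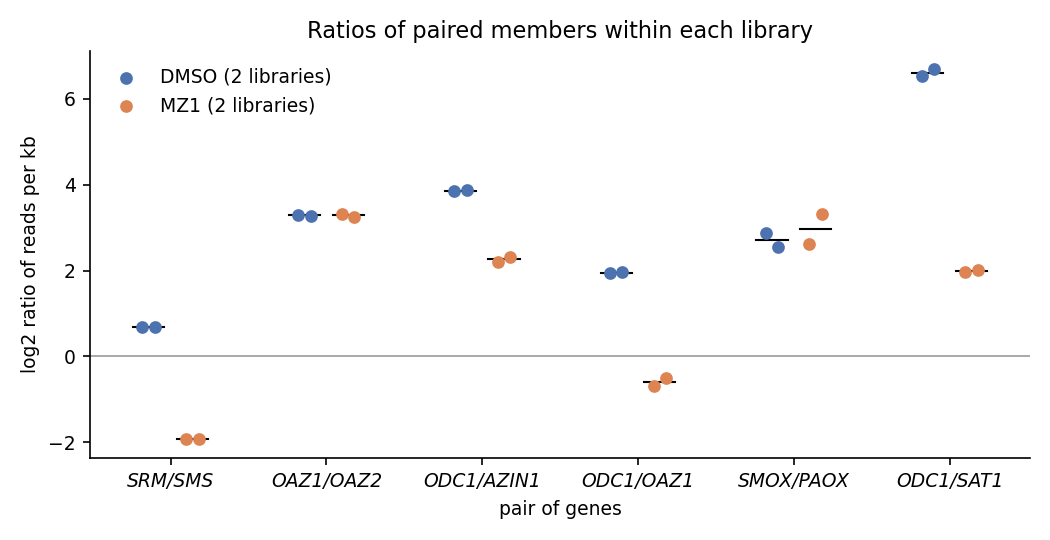
Log2 ratio of reads per kb of exon for 6 pairs of polyamine genes within each library, a measure that does not depend on library scaling. Points are libraries and lines are means of 2. SRM/SMS and ODC1/OAZ1 cross 0 from DMSO to MZ1, OAZ1/OAZ2 stays at 3.28 and 3.29, and SMOX/PAOX overlaps between groups.

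SAT1 (ENSG00000130066; chromosome X, 23783173 to 23786226, plus strand) encodes spermidine/spermine acetyltransferase, the regulated step of polyamine breakdown. It was at 9.77 and 8.50 CPM with DMSO and at 99.6 and 105 CPM with MZ1. The lowest MZ1 library is far above the highest DMSO library, and the log2 fold change was 3.48 ± 0.08 (SE; edgeR adjusted p = 3.87e-22). Of all tested genes 91.6% had a lower fold change. SAT1 lies 1.79 Mb beyond the end of SMS on the same arm of chromosome X, and these genes moved in opposite directions. The ratio of ODC1 to SAT1 per kb was 92.2 and 103 with DMSO and 3.89 and 4.05 with MZ1, a 24.6-fold drop (exact permutation p = 0.333, 0.5 after adjustment over 6 pairs). The SAT1 window is given because this gene rose most among the members (plus strand, GRCh38.p14). It holds no CACGTG and so no capitals, and the windows of AMD1 and SMS, which fell, hold none either.
SAT1 chrX:23782923-23783222: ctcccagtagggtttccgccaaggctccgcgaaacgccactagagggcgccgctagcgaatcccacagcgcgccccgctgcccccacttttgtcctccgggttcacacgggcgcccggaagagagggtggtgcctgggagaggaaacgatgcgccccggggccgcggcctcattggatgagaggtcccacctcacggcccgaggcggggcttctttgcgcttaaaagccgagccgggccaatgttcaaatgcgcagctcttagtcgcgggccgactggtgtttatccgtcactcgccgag

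The oxidase genes did not follow SAT1. SMOX (ENSG00000088826; chromosome 20, 4120980 to 4187747, plus strand), whose product oxidises spermine directly, was at 11.1 and 10.8 CPM with DMSO and at 9.48 and 9.40 CPM with MZ1. Its MZ1 values lie below its DMSO values, but the log2 fold change of -0.21 ± 0.15 did not pass (SE; edgeR adjusted p = 0.182), and it was 0.06 with upper-quartile scaling. The 95% interval of -0.50 to 0.08 leaves room for a modest fall and none for a change like that of SAT1. PAOX (ENSG00000148832; chromosome 10, 133379234 to 133391694, plus strand), whose product oxidises the acetylated polyamines that SAT1 makes, had 19 and 24 reads with DMSO and 17 and 10 with MZ1. These are 1.16 and 1.42 against 1.2 and 0.723 CPM, so the groups overlap (edgeR adjusted p = 0.367). At 43 and 27 reads in all, the exact 95% counting interval of the ratio of MZ1 to DMSO ran from 0.444 to 1.24, and smaller changes were not detectable at this depth. The log2 ratio of SMOX to PAOX per kb also overlapped between the groups, at 2.88 and 2.56 with DMSO and 2.61 and 3.33 with MZ1 (exact permutation p = 0.667, 0.8 after adjustment over 6 pairs).

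Ordered by level per kb of exon, the DMSO libraries ran from ODC1 (356 CPM per kb) through SRM (136), OAZ1 (91.9), SMS (84.8), AZIN1 (24.5), AMD1 (14.5), OAZ2 (9.44), SMOX (3.71) and SAT1 (3.66) to PAOX (0.566). SMOX and SAT1 overlapped between libraries at this point and the other neighbours did not. With MZ1 the order was OAZ1 (246 CPM per kb), ODC1 (162), SAT1 (40.9), AZIN1 (33.6), OAZ2 (25.2), SMS (17.1), SRM (4.52), SMOX (3.20), AMD1 (3.11) and PAOX (0.423). SMOX and AMD1 overlapped there. SRM thus moved from the second to the seventh level and SAT1 from the ninth to the third. Exon lengths are those of all annotated exons joined, so isoform use can shift these levels, and at most 7.2% of a member's exonic length is shared with another gene.

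The genes around these enzymes were taken from 5 lists with 38 symbols, of which 33 had a row and 25 could be tested. Of the 25, 7 were called higher and 15 lower (88.0%, against 84.2% of all tested genes and 87.3% of protein-coding ones). Their median log2 fold change was -0.66, against -0.2 over tested protein-coding genes. With upper-quartile scaling, which moves all log2 fold changes up by a median of 0.271, the counts were 10 and 14. OTC, MAT1A, SLC22A3, SLC47A1 and AOC1 were not analysed here, and the rest had too few reads to test.

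All 4 tested genes of hypusine formation were called lower, as were 41.3% of all tested genes. Their median log2 fold change was -2.24, against 0.05 over all tested genes and -0.2 over protein-coding ones. EIF5AL1 in this list may not be independent of EIF5A. Hypusine is the spermidine-derived residue that only the translation factor eIF5A carries. EIF5A itself went from 677.3 and 685.5 CPM with DMSO to 131.5 and 121.5 CPM with MZ1, and its log2 fold change was -2.43 ± 0.05 (SE; edgeR adjusted p = 2.79e-24). DHPS, the deoxyhypusine synthase gene that uses spermidine, fell by 1.33 ± 0.21 on the log2 scale, and overlapping genes share 41.8% of its exons by length, so its count is uncertain. DOHH, the hydroxylase gene of the second step, fell by 2.06 ± 0.14. EIF5AL1 fell by 2.79 ± 0.19, but it is a near-identical copy of EIF5A and may share its reads.

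In the list of ornithine supply and use, 2 of 3 tested genes were called lower and 1 higher, against 41.3% and 42.8% of all tested genes. SLC25A15, the mitochondrial ornithine carrier gene, fell by 1.96 ± 0.10 on the log2 scale and OAT, the ornithine aminotransferase gene, by 0.66 ± 0.10. AGMAT, a gene named for agmatinase, had 2 reads over the DMSO libraries and 38 over the MZ1 libraries. The ratio was 22.6, with an exact 95% counting interval of 5.84 to 193. The arginase genes ARG1 and ARG2 had 0 to 10 reads in every library and were not tested.

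The list of S-adenosylmethionine supply and of the salvage of methylthioadenosine, the by-product of both synthases, had 4 of 7 tested genes lower and 1 higher. Over all tested genes 41.3% were called lower and 42.8% higher. MTAP, whose product splits methylthioadenosine, went from 69.5 and 65.7 CPM to 14.1 and 14.3 CPM (log2 fold change -2.25 ± 0.09; edgeR adjusted p = 3.51e-18). ENOPH1, a later step of the same salvage route, fell by 2.90 ± 0.08, while ADI1, the step after it, rose by 1.58 ± 0.06. MAT2A, the catalytic subunit of S-adenosylmethionine synthetase in most tissues, fell by 0.45 ± 0.04. Its regulatory partner MAT2B was at 0.07 ± 0.05 and MRI1 at 0.39 ± 0.20, neither of them called (edgeR adjusted p = 0.179 and 0.0762). Both were called higher with upper-quartile scaling (MAT2B 0.35, MRI1 0.67) and with the stricter count filter (0.26 and 0.58), and MRI1 also without MZ1 replicate 2 (0.55). Overlapping genes cover 34.5% of the exonic length of MRI1.

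Transport genes had 4 of 8 tested members called lower and 3 called higher (all tested genes: 41.3% and 42.8%). SLC7A1, the main carrier of arginine and ornithine into cells, fell from 223 and 239 CPM to 6.65 and 7.66 CPM, and its log2 fold change was -5.01 ± 0.08 (SE; edgeR adjusted p = 6.88e-26). This is close to the value for SRM. SLC7A2, another cationic amino acid carrier gene, fell by 1.54 ± 0.06 and SLC3A2, the heavy chain of several amino acid exchangers, by 0.86 ± 0.05. ATP13A3, a polyamine transporter gene of the P5B ATPase family, rose by 0.61 ± 0.05, from 165 and 156 CPM to 242.2 and 246.5 CPM. GPC1, a heparan sulfate proteoglycan gene, rose from 44 to 141 reads over the 2 libraries of a group (ratio 3.81, exact 95% counting interval 2.70 to 5.48).

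Among paralogs and enzymes of terminal oxidation 2 of 3 tested genes were called higher and 1 lower (all tested genes: 42.8% and 41.3%). AZIN2, the second antizyme inhibitor gene, had 31 reads with DMSO and 191 with MZ1 (log2 fold change 2.87 ± 0.29; edgeR adjusted p = 2.08e-09). OAZ3, an antizyme gene known from testis, went from 7 to 48 reads (edgeR adjusted p = 3.00e-05), and other genes overlap 29% of its exonic length. ALDH9A1, an aminoaldehyde dehydrogenase gene, was called lower at -0.14 ± 0.05, but higher at 0.13 with upper-quartile scaling, at 0.05 and not called with a stricter count filter, and at -0.11 and not called without MZ1 replicate 1.

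**Figure D4:**
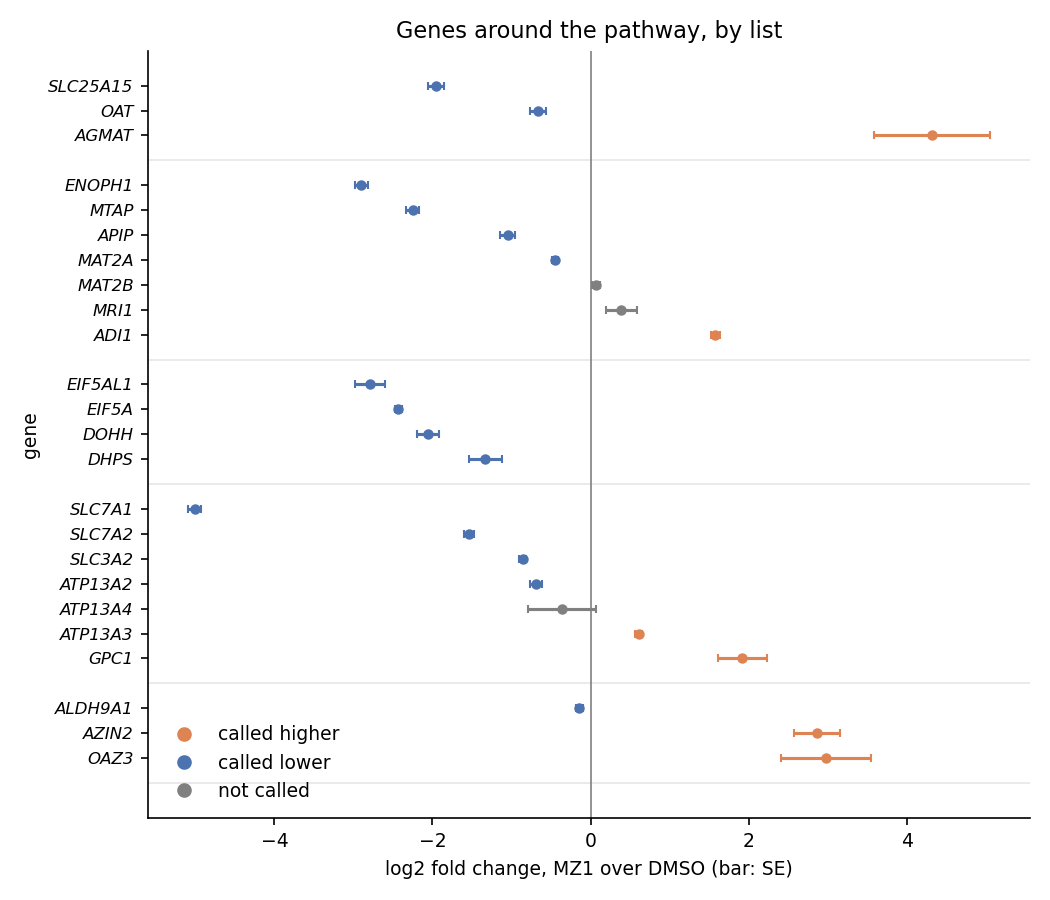
Log2 fold change (MZ1 over DMSO, bar: SE) of tested genes around the pathway, in 5 blocks from the top: ornithine supply and use, S-adenosylmethionine and methylthioadenosine, hypusine formation, transport, and paralogs with terminal oxidation. Colours give the call. All 4 hypusine genes lie below 0, and SLC7A1 has the lowest value at -5.01.

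ODC1 and SRM were compared with 9256 other protein-coding genes whose edgeR average abundance was 3 or more in log2 CPM. By centred log2 CPM over the 4 libraries, the closest to ODC1 were EXOSC3, SPTLC3 and FPGS, at Euclidean distances of 0.013, 0.021 and 0.023. The closest to SRM were LCK, UGT3A2 and SLC7A1, at 0.049, 0.061 and 0.131. With 4 libraries in 2 groups this likeness is little more than a similar fold change, taken after 0.5 CPM was added. That addition weighs on LCK, which averaged 1.0 CPM with MZ1. Its log2 fold change in the fit was -5.38, further from that of SRM (-4.91) than the value for SLC7A1 (-5.01).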

How the data were processed

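The table the authors deposited gives raw read counts by Ensembl gene, judged from its whole-number values. The labels' protocols name TRIzol for RNA and a TruSeq RNA kit for libraries. HISAT2 2.2.0 and hg38 appear in the submitters' processing notes. What counted the reads, with which annotation and strand setting, is not given in the sources used here. Reads of overlapping genes on either strand may therefore be mixed.

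GENCODE release 29 (GRCh38) held all 28814 IDs and gave positions and exon lengths. Counts were fitted in R 4.3.3 with edgeR 4.0.16: filterByExpr by group, TMM scaling, and the quasi-likelihood test with treatment as the only term over all 4 libraries. Genes with an adjusted p (Benjamini-Hochberg over all 16862 tested genes) below 0.05 were called. Standard errors come from the coefficient and its F statistic, and values with ± in the text are SE. The replicates of a group differed by more than sampling noise (chi-square per degree of freedom 2.44 and 2.17), so each counts as 1 library. Counting intervals cover counting error only, as these reads carry no molecular identifiers. The model was also run on simulated counts in which most genes did not change. Here 84.2% of tested genes were called, so that run does not show how the scaling behaves in these data.

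Groups came from the sample titles. The members and gene lists were chosen with earlier results of these data known. All members are named, together with the tested genes of lists of up to 7 symbols, and for longer lists up to 3 genes a direction by smallest adjusted p. For ODC1 and SRM the 3 genes nearest in profile are also named (0.5 CPM added before taking logs), as are genes with symbols derived from a member's. A result that the naming rule would include is counted in its list but not reported here. Alternatives covered scaling, filtering, DESeq2 1.42.0, limma-voom (limma 3.58.1), a replicate block, omission of mitochondrial and histone genes, and each library in turn. Promoter windows are from RefSeq (GRCh38.p14).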

Additional observations from a re-analysis of the deposited data

How the results depend on the processing

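Each member's log2 fold change was recomputed under 13 alternative settings, and 128 of 129 values kept their direction and their side of the threshold. The exception was SMOX, at 0.06 with upper-quartile scaling, and PAOX had too few reads for the stricter filter (5 CPM in 2 libraries). Under every one of these settings 4 members were called higher and 4 lower. Leaving out each library in turn gave log2 fold changes of -1.20 to -1.06 for ODC1, -2.33 to -2.12 for AMD1, -4.96 to -4.85 for SRM, -2.36 to -2.26 for SMS, 1.36 to 1.45 for OAZ1, 1.37 to 1.43 for OAZ2, 0.39 to 0.48 for AZIN1, 3.35 to 3.54 for SAT1, -0.27 to -0.21 for SMOX and -0.82 to -0.10 for PAOX. With the replicate number as a block, 4 members were called higher and 4 lower, and 7107 genes in all were higher and 6856 lower. The deviations of same-numbered libraries correlated at 0.0114 over genes. With so few libraries in a group, this value cannot settle whether the numbers pair the libraries.

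The median of all log2 fold changes moved by 0.271 with upper-quartile scaling, where 58.5% of calls were higher against 50.9%, by 0.188 with the stricter filter, by -0.076 with library totals and by -0.077 without a count filter. Upper-quartile scaling reversed ALDH9A1 (0.13), as did the stricter filter (0.05). MAT2B was at -0.002 with library totals and at -0.002 without a count filter. The OAZ1/OAZ2 log2 ratio, MZ1 minus DMSO, ranged from -0.02 to 0.03 when each library was left out, and that of SMOX/PAOX from -0.11 to 0.61. Ratios per kb of unshared exon length shift both groups alike and so gave the same differences. A change of scaling or filter moves all log2 fold changes by nearly the same amount. The moves of ALDH9A1 and MAT2B under those settings follow from this. Depth limits PAOX, AGMAT and OAZ3, which rest on few reads in a group.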
